A study of Sus scrofa with 9 samples.

Results

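The loci described here are those whose deposited description names a histone protein of the H1, H2A, H2B, H3 or H4 class, with enzymes that modify histones, chaperones, binding proteins and kinases left out. This rule found 54 of the 28095 loci in the gene table. One of them, MSTRG.12871, is described as a histone H4 transcription factor and is not a histone, which left 53 histone loci. Their descriptions place 35 among the replication-dependent histones, 9 among the replacement variants and 9 in a group of special forms (H1t, H1oo, H2A-Bbd, sperm H2A-beta, subacrosomal H2B, H2B.L4 and H3.3C). This grouping was made here and is not in the deposited table. The RNA came from spleens of Ningxiang pigs at postnatal days 30, 90 and 210, with 3 libraries at each age and no treatment named in the labels. The labels do not say that the 3 libraries of an age came from separate animals, and they give no sex. The p-values therefore set differences between ages against the spread between libraries, which need not be the spread between animals. Totals ran from 48930557 to 62119158 counts per library.

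Histones package DNA into nucleosomes, in which H2A, H2B, H3 and H4 form the core and H1 binds the linker DNA. Replication-dependent histone genes lie in clusters, lack introns in mammals and are transcribed mainly in S phase, when new DNA must be packaged; most of their mRNAs end in a stem-loop rather than a poly(A) tail. Replacement variants such as H2A.Z, H3.3 and H1.0 are made throughout the cell cycle from polyadenylated mRNAs. In the spleen, dividing B cells of germinal centres and, in young animals, dividing erythroid precursors can be sites of S phase. The labels' protocol names selection on poly(T) beads but also fractions without poly(A), so how fully stem-loop mRNAs were captured cannot be read from them.

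Levels between loci are given as the deposited FPKM (fragments scaled to locus length and library size), averaged over 9 libraries. Values of 1 locus in each library are given as scaled CPM, which are the deposited counts divided by TMM-scaled library sizes. The test was edgeR's quasi-likelihood test with Benjamini-Hochberg adjustment over the 19264 loci that averaged 1 FPKM or more, and a locus was called at an adjusted p under 0.05. Of the 53 histone loci, 43 reached that level: 33 replication-dependent loci, all 9 variants and 1 locus of the special forms. Calls by DESeq2, an alternative test, are given without the share of all loci it called, so they cannot be set against a background. Changes are on the log2 scale, with their standard errors (SE).

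Before any comparison of ages, 1 library has to be set out. Day 210 replicate 2 gave the lowest scaled CPM of all 9 libraries at 33 of 33 tested replication-dependent loci, against 15.4% of all tested loci. It was below 0.5 of the mean of the other day 210 libraries at 30 of those 33 loci, against 3.63% of all loci with a value, and the median ratio was 0.29. The summed scaled CPM of the 35 replication-dependent loci was 4305, 3585 and 2830 in the day 30 libraries. It was 2739, 2786 and 2960 at day 90, then 2857, 876.1 and 2516 at day 210. The other 8 libraries therefore lay between 2516 and 4305, and the low one at 876.1. As a share of all counts, the same loci held from 0.248% to 0.4189% in the other 8 libraries and 0.08877% in day 210 replicate 2. At the opposite end, day 30 replicate 1 was the highest library at 28 of the 33 loci, against 13.1% of all loci. In summed FPKM, which the authors scaled by library in another way, day 90 stood at 0.677 of day 30, and in scaled CPM at 0.792; day 210 stood at 0.566 and 0.583. The changes of named loci at day 210 against day 30 are therefore given with and without that library.

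**Figure D1:**
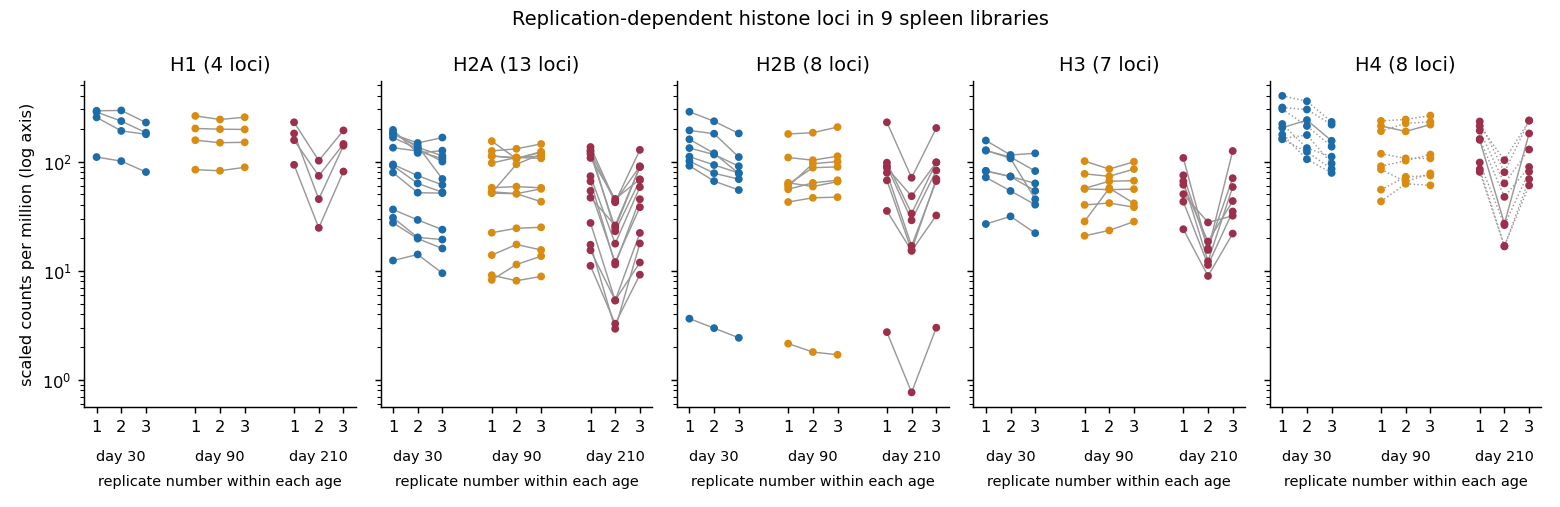
Scaled CPM of the tested replication-dependent histone loci in each library, by class (log axis), with grey lines joining the values of 1 locus within an age and dotted lines marking H4 loci that the rule's wording missed. Each locus reached its lowest value in day 210 replicate 2, where the summed level was 876.1 against 2516 or more in the other libraries.

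The 35 replication-dependent loci lay in 4 groups. In the coordinates of the deposited table, whose pig genome build is not given in the sources used here, 13 lay on chromosome 7 between 3924625 and 4110896 and 8 more on chromosome 7 between 132560383 and 132968097. A further 11 lay on chromosome 4 between 86039649 and 86089601, and 3 on chromosome 2 between 103441189 and 103459120. Of the 35, 29 were shorter than 1000 bases. In FPKM, which divides by locus length, their levels were high. There, 22 averaged 100 FPKM or more, a level reached by 178 of all loci in the table. As most of the 35 are short, their rank among all loci depends on that division. Of the 35 loci, 15 share their description with another locus and 20 overlap another locus, and 4 merge several annotated genes. Strand use and the treatment of reads that match several copies are not stated, so reads may be divided among near-identical loci and values of single copies are uncertain.

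The sum of each group was lower at day 210 than at day 30. Day 210 over day 30, in summed scaled CPM, was 0.616 for the left group on chromosome 7, 0.531 for the right group, 0.578 on chromosome 4 and 0.495 on chromosome 2. The same ratios without day 210 replicate 2 were 0.784, 0.708, 0.743 and 0.626. That library stood at 0.356, 0.252, 0.333 and 0.372 of the other day 210 libraries in these groups. These ratios were not tested, since they are sums over chosen loci.

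Linker histone H1 was represented by 4 replication-dependent loci at mean levels of 93.7 to 266 FPKM. The highest, MSTRG.9891, is described as histone H1.4 and lies on chromosome 7 from 4011215 to 4011874 on the minus strand. Its scaled CPM was 292, 294 and 228 at day 30, 262, 243 and 255 at day 90, then 229, 102 and 193 at day 210. The day 90 libraries lay within the range of day 30, and day 210 replicate 2 stood well below the rest. The change at day 210 against day 30 was -0.64 (SE 0.25, adjusted p = 0.168). MSTRG.9896, an H1.3-like locus, gave 284, 235 and 184 at day 30, 201, 198 and 197 at day 90, then 157, 74 and 145 at day 210. All 3 day 210 libraries lay below the 6 others. Its change was -0.90 (SE 0.26), which did not pass the threshold (adjusted p = 0.0764). MSTRG.11355, described as H1.5, had a change of -0.77 (SE 0.40, adjusted p = 0.278). When day 210 replicate 2 was left out, the 3 changes were -0.36 (SE 0.15, adjusted p = 0.23), -0.63 (SE 0.17, adjusted p = 0.0993) and -0.37 (SE 0.18, adjusted p = 0.304). Within each library, the H1.4 locus held 31.0% to 41.8% of the summed FPKM of the 4 loci, with its highest share in day 210 replicate 2. That library gave the H1.5 locus its lowest share, 21.3%, where the others ran up to 31.1%.

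H2A and H2B form the dimers that flank the H3-H4 tetramer. The 14 replication-dependent H2A loci ranged from 0.495 to 219 FPKM, and 13 were tested. The highest was MSTRG.9892, an H2A type 1-C-like locus, with scaled CPM of 134, 125 and 106 at day 30, 125, 131 and 145 at day 90, then 136, 43.2 and 90.6 at day 210. Day 30 and day 90 overlapped there, and the change at day 90 was 0.13 (SE 0.33, adjusted p = 0.847). MSTRG.6093, an H2A type 2-C locus on chromosome 4, gave 184, 135 and 113 at day 30, 97, 109 and 107 at day 90, then 108, 45.5 and 68.8 at day 210. Each day 30 library was above each library of the later ages. The change at day 210 was -0.96 (SE 0.29, adjusted p = 0.0848). MSTRG.6099, an H2A type 2-A-like locus, had a change of -0.75 (SE 0.35, adjusted p = 0.234). In the fit that left out day 210 replicate 2, the day 210 change was -0.10 (SE 0.18, adjusted p = 0.82) for MSTRG.9892, -0.70 (SE 0.24, adjusted p = 0.171) for MSTRG.6093 and -0.39 (SE 0.16, adjusted p = 0.258) for MSTRG.6099. The H2A locus with the lowest estimate was MSTRG.11371, chosen after its values were seen, which merges 2 annotated H2A genes. It gave 195, 120 and 126 at day 30, 113, 107 and 123 at day 90, then 46.7, 26 and 89.5 at day 210. The day 210 libraries were all below the others, with a change of -1.45 (SE 0.38) that missed the threshold (adjusted p = 0.0589). Without day 210 replicate 2 the change was -1.11 (SE 0.30, adjusted p = 0.1).

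The 8 replication-dependent H2B loci ranged from 8.75 to 229 FPKM. One of them fell between day 30 and day 210. MSTRG.11373, an H2B type 1-K-like locus on chromosome 7 from 132962599 to 132962979, gave 91.5, 66.2 and 54.9 at day 30, 42.6, 46.6 and 47.2 at day 90, then 35.3, 15.2 and 32.1 at day 210. The 3 ages did not overlap. Its change was -1.36 (SE 0.30, adjusted p = 0.0322) at day 210 against day 30, and -1.07 (SE 0.21, adjusted p = 0.0454) without day 210 replicate 2. The change from day 30 to day 90 was -0.64 (SE 0.29, adjusted p = 0.229). Leaving out each library in turn gave changes of -1.58 to -1.07 and adjusted p-values of 0.0354 to 0.0957. The call was lost without day 30 replicate 1 (0.0957), day 30 replicate 2 (0.0821), day 90 replicate 2 (0.0524), day 90 replicate 3 (0.0505) or day 210 replicate 3 (0.0538). MSTRG.11373 lies inside the span of MSTRG.11371, which is on the opposite strand, so without stated strand use their reads cannot be told apart.

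The highest H2B locus was MSTRG.6094, an H2B type 2-E-like locus on chromosome 4. It gave 193, 180 and 110 at day 30, 109, 103 and 112 at day 90, then 87.7, 48.2 and 98.3 at day 210. Day 210 lay below both earlier ages, while day 90 overlapped with the lowest day 30 library. The change was -1.04 (SE 0.28, adjusted p = 0.0572) at day 210 against day 30. MSTRG.9884, an H2B type 1-like locus that merges annotated genes, had a change of -0.48 (SE 0.36, adjusted p = 0.458). MSTRG.6097, whose description is the same as that of MSTRG.6094, had a change of -0.57 (SE 0.38, adjusted p = 0.4). Leaving out day 210 replicate 2 gave -0.79 (SE 0.22, adjusted p = 0.108) for MSTRG.6094, -0.11 (SE 0.19, adjusted p = 0.798) for MSTRG.9884 and -0.21 (SE 0.24, adjusted p = 0.709) for MSTRG.6097.

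H3 and H4 form the tetramer at the centre of the nucleosome. Of 8 replication-dependent H3 loci, 7 were tested and the highest stood at 189 FPKM. MSTRG.6102, described as histone H3 type 2 and lying on chromosome 4 from 86087783 to 86088193, fell between day 30 and day 210. Its scaled CPM was 82.2, 72.9 and 53.9 at day 30, 56.8, 66.1 and 66.8 at day 90, then 50.3, 27.7 and 31.9 at day 210. Day 210 lay below both earlier ages, and day 90 lay within the range of day 30. The change was -0.93 (SE 0.23, adjusted p = 0.0493), just inside the threshold, and -0.76 (SE 0.24, adjusted p = 0.135) without day 210 replicate 2. The call was lost in 7 of the 9 fits that left out a library, with adjusted p-values from 0.0206 to 0.146, and was kept only without day 30 replicate 3 (0.0397) or day 210 replicate 1 (0.0206). MSTRG.6100 and MSTRG.6095 carry the same description as MSTRG.6102. MSTRG.6100 gave 156, 115 and 119 at day 30, 101, 85.4 and 99.6 at day 90, then 108, 15.5 and 125 at day 210. Its ratio of day 210 replicate 2 to the other day 210 libraries, 0.133, was the lowest of the 33 loci, while MSTRG.6102 had the highest, 0.673. MSTRG.6100 changed by -0.65 (SE 0.56, adjusted p = 0.525) and MSTRG.6095 by -1.03 (SE 0.58, adjusted p = 0.32). On chromosome 7, the H3.1-like MSTRG.9881 had a change of -0.98 (SE 0.46, adjusted p = 0.231). With that library left out, the changes were -0.16 (SE 0.16, adjusted p = 0.658) for MSTRG.6100, -0.58 (SE 0.43, adjusted p = 0.52) for MSTRG.6095 and -0.55 (SE 0.18, adjusted p = 0.155) for MSTRG.9881.

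The rule's wording reached 1 replication-dependent H4 locus, MSTRG.11353, which merges several annotated genes on chromosome 7 and averaged 125 FPKM. It gave 204, 240 and 155 at day 30, 212, 189 and 218 at day 90, then 158, 27 and 181 at day 210. Days 30 and 90 overlapped, and day 210 replicate 2 stood at 0.159 of the other day 210 libraries. Its change at day 210 against day 30 was -0.71 (SE 0.53, adjusted p = 0.455), and -0.23 (SE 0.18, adjusted p = 0.547) when that library was left out. A further 7 H4 loci are described as "histone 1, H4c" and fell outside the rule. They ran from 182 to 542 FPKM. The highest, MSTRG.9866, gave 313, 300 and 218 at day 30, 190, 224 and 231 at day 90, then 212, 103 and 237 at day 210. Its change was -0.59 (SE 0.28, adjusted p = 0.234), and -0.31 (SE 0.18, adjusted p = 0.4) with the low library left out. Day 210 replicate 2 was again the lowest library at 7 of 7, against 15.4% of all tested loci. None of the 7 was called by edgeR in any comparison. Of all loci 6.08% were called at day 90 and 6.24% at day 210 against day 30, and 0.535% at day 210 against day 90. An unadjusted p under 0.05 was found for 4 of the 7 at day 210 against day 30, against 23.7% of all loci, and DESeq2 called 1. At day 210 against day 90 it was found for 0, against 14.1%. At day 90 against day 30, 2 had one, against 23.1%. Both were also called by DESeq2. Their edgeR changes were -1.20 (SE 0.41, adjusted p = 0.118) for MSTRG.9879 and -1.08 (SE 0.38, adjusted p = 0.132) for MSTRG.9894. MSTRG.9894 also spans an annotated gene that is no histone.

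Taking the 33 tested replication-dependent loci as a list, edgeR called none at day 90 against day 30, where 6.08% of all tested loci were called; DESeq2 called 1 of the 43 histone loci. None of the 33 had an unadjusted p under 0.05 in that comparison, against 23.1% of all loci, although 31 of 33 estimates were below 0 and their median was -0.40. Over all tested loci 49.6% were below 0 and the median was 0. In 13 of the 33, all 3 day 90 libraries lay below all 3 day 30 libraries, against 16.7% of all loci; in none did they lie above, against 16.9%. Without day 210 replicate 2 16 of the 33 had an unadjusted p under 0.05, against 23.8% of all loci, and none was called, against 5.97%. The median estimate was still -0.40, while SEs fell, as from 0.56 to 0.15 for MSTRG.6100. That library was set apart for its low values at these same loci. Counts from fits without it therefore give no independent support for a change, here or at day 210.

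At day 210 against day 30, 3 of the 43 tested histone loci were called, all lower: MSTRG.11373, MSTRG.6102 and the variant H1.0. Among all loci 6.24% were called and 3.7% were lower, so the members' share is near the background. All 33 replication-dependent estimates were below 0, with a median of -0.77 and a range of -1.45 to -0.44, beside a median of 0 over all loci, of which 49.4% were below 0. An unadjusted p under 0.05 was found for 10 of the 33, against 23.7% of all loci. Groups did not overlap, with day 210 lower, at 10 of 33 loci against 13.2% of all. Without day 210 replicate 2 the median was -0.37 and the range -1.11 to -0.07. All 33 were still below 0. There, 12 had an unadjusted p under 0.05, against 18.8% of all loci, and 1 histone locus, MSTRG.11373, was called, against 2.03% of all loci. Neighbouring copies share sequence and clusters share regulation, so the 33 estimates are not independent of one another.

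**Figure D2:**
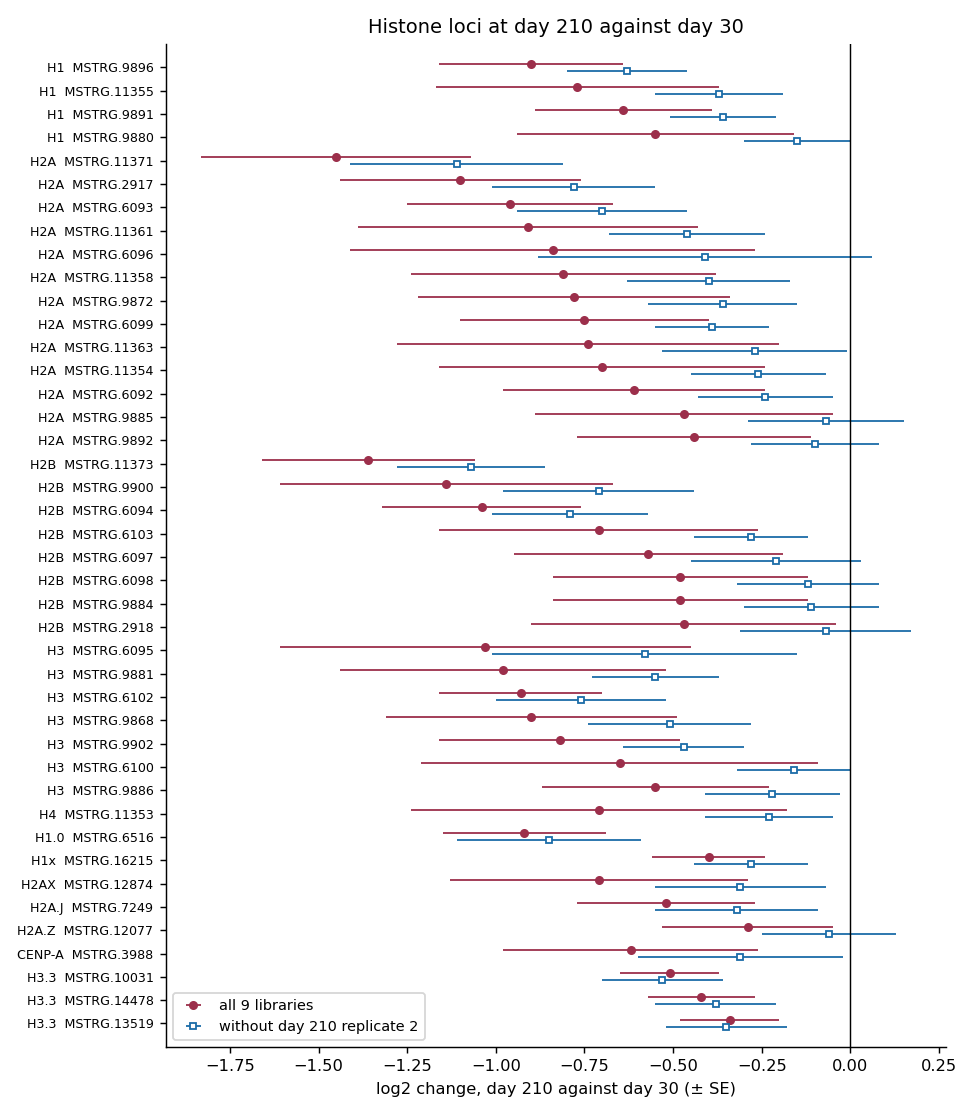
Log2 change ± SE at day 210 against day 30 for 33 replication-dependent and 9 variant loci, from edgeR with all 9 libraries (filled) and without day 210 replicate 2 (open). All estimates lie below 0 in both fits, and the median of the replication-dependent loci moved from -0.77 to -0.37.

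At day 210 against day 90 no histone locus was called, against 0.535% of all loci. An unadjusted p under 0.05 was found for 4 replication-dependent loci and 3 variants, against 14.1% of all loci, and DESeq2 called 2. The median of the 33 replication-dependent estimates was -0.39, with 30 below 0, against 50% of all loci. Day 210 lay below day 90 without overlap at 7 of the 33, against 9.53% of all loci. Without day 210 replicate 2 it was -0.02, with 17 below and 16 above 0, and no histone locus was called, against 0.182% of all loci. In the test over all 3 ages, 1 of the 43 was called, H1.0, against 7.64% of all loci.

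In FPKM, which is scaled to locus length, the replacement variants stood at lower levels than most replication-dependent loci, from 6.47 to 84.8. In mean scaled CPM, not scaled to length, 2 H3.3 loci stood higher than each replication-dependent H3 locus at each age. MSTRG.14478 gave 150, 142 and 112 at days 30, 90 and 210, and MSTRG.13519 gave 132, 133 and 104. The highest such H3 locus, MSTRG.6100, gave 130, 95.4 and 82.7. The summed scaled CPM of the 9 variants was 494.5, 487.9 and 404.2 at day 30 and 412.5, 443.2 and 430.1 at day 90. It was 403.1, 299.4 and 327.9 at day 210. The sum in day 210 replicate 2 was 0.819 of the other day 210 libraries, where the replication-dependent sum was 0.326. At day 210 against day 30 all 9 variant estimates were below 0. Their median was -0.51, and -0.32 without day 210 replicate 2, beside -0.77 and -0.37 for replication-dependent loci. An unadjusted p under 0.05 was found for 5 of the 9, against 23.7% of all loci. Without that library 2 of the 9 had one, against 18.8%. The variant sum was then 0.791 of day 30, and the replication-dependent sum 0.752. The lowest library was day 210 replicate 2 at 5 of 9 variants, against 15.4% of all tested loci. Of the 9, 2 (H2AX and CENP-A) were below 0.5 of the other day 210 libraries, against 3.63% of all loci.

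**Figure D3:**
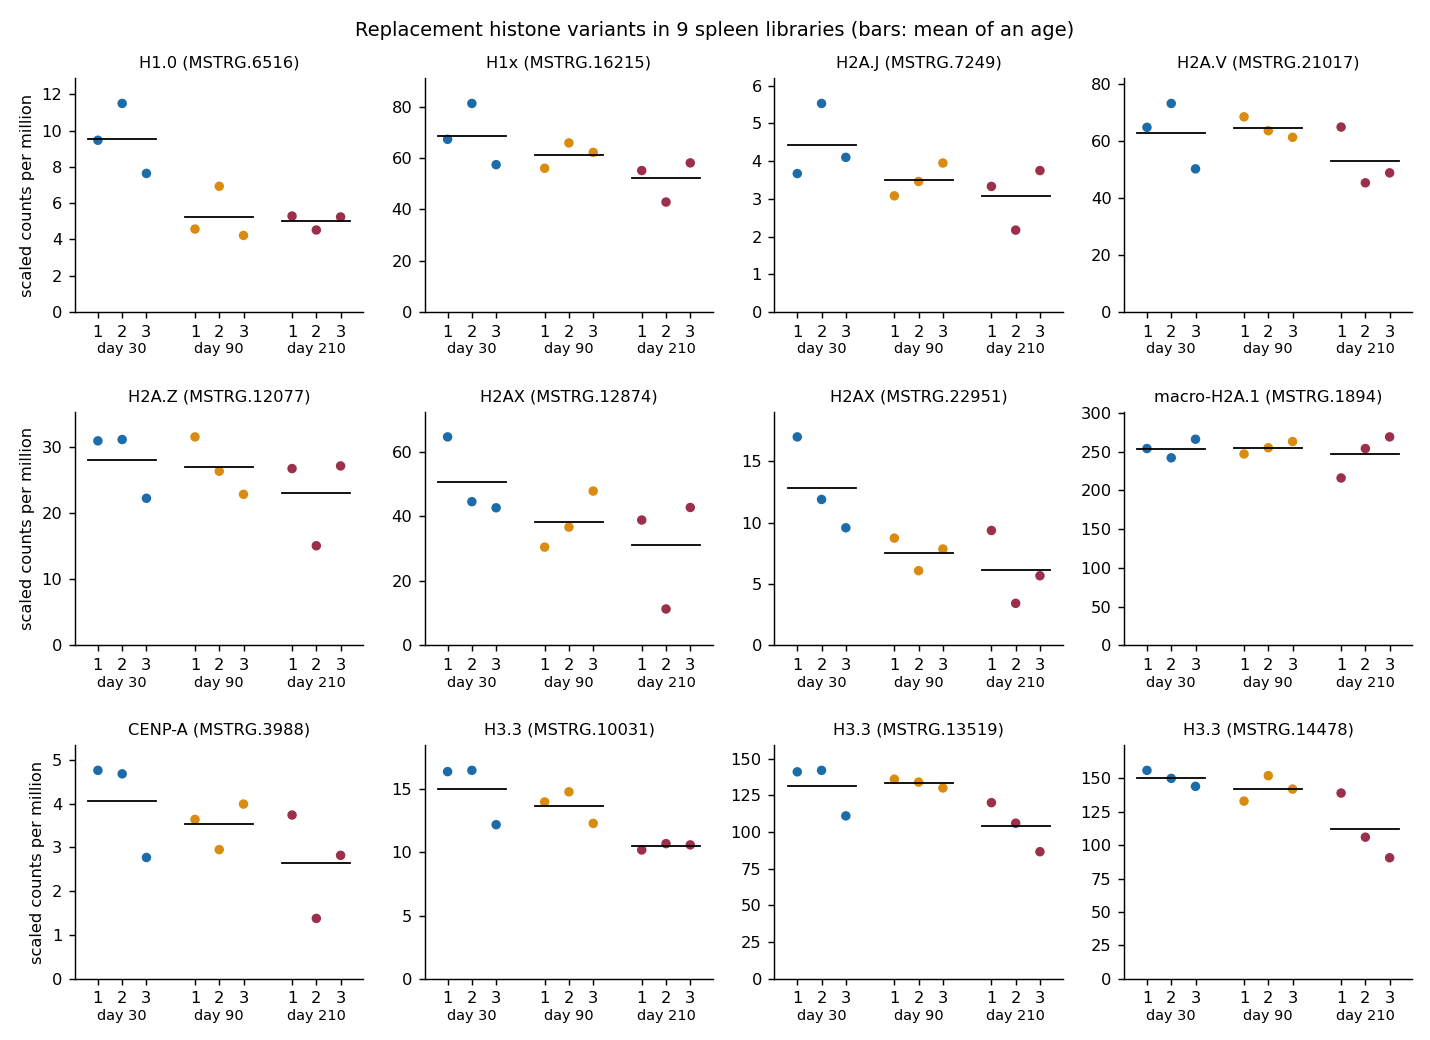
Scaled CPM of 12 variant loci in each library, with black bars for the mean of an age; H2A.V, macro-H2A.1 and the H2AX locus MSTRG.22951 are outside the rule's wording. H1.0 lay at 7.64 or above at day 30 and at 6.93 or below afterwards, and H2AX and CENP-A had their lowest values in day 210 replicate 2.

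Histone H1.0 is the linker histone that accumulates in differentiated, non-dividing cells. MSTRG.6516, on chromosome 5 from 2920631 to 2921152, gave 9.47, 11.5 and 7.64 scaled CPM at day 30, 4.57, 6.93 and 4.22 at day 90, then 5.29, 4.52 and 5.24 at day 210. All day 30 libraries were above the 6 later ones, and the later ages overlapped. H1.0 fell by day 210, with a change of -0.92 (SE 0.23, adjusted p = 0.0465). The change at day 90 was of like size, -0.86 (SE 0.23), and did not pass (adjusted p = 0.0572). Without day 210 replicate 2 the day 210 change was -0.85 (SE 0.26, adjusted p = 0.133). The call was kept only without day 30 replicate 3 (0.0436) or day 90 replicate 2 (0.0366), and over all 9 such fits the adjusted p ran from 0.0366 to 0.158. Unlike the replication-dependent loci, H1.0 in day 210 replicate 2 stood at 0.858 of the other day 210 libraries; that contrast between loci was not tested. The other somatic linker variant, H1x (MSTRG.16215), averaged 70.7 FPKM and had a change of -0.40 (SE 0.16, adjusted p = 0.175), and -0.28 (SE 0.16, adjusted p = 0.4) with that library left out.

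H2A.Z marks promoters and other regulatory regions. MSTRG.12077 averaged 50.8 FPKM and gave 31, 31.2 and 22.3 at day 30, 31.6, 26.4 and 22.9 at day 90, then 26.8, 15.1 and 27.2 at day 210. The 3 ages overlapped, with changes of -0.06 (SE 0.24, adjusted p = 0.911) at day 90 and -0.29 (SE 0.24, adjusted p = 0.509) at day 210. The latter was -0.06 (SE 0.19, adjusted p = 0.907) with day 210 replicate 2 left out. H2AX, which is phosphorylated at DNA breaks and whose gene is known to give both stem-loop and polyadenylated mRNAs, had a low value in 1 library. MSTRG.12874 gave 64.7, 44.6 and 42.7 at day 30, 30.5, 36.7 and 47.9 at day 90, then 38.9, 11.3 and 42.8 at day 210. Its change was -0.71 (SE 0.42, adjusted p = 0.345), and -0.31 (SE 0.24, adjusted p = 0.536) with that library left out. Its ratio in day 210 replicate 2, 0.276, was the lowest of the variants and lay within the range of the replication-dependent loci, 0.133 to 0.673. A second H2AX locus, MSTRG.22951, lies on an unplaced scaffold and is outside the rule's wording. It gave 17, 11.9 and 9.59 at day 30, 8.75, 6.09 and 7.86 at day 90, then 9.37, 3.43 and 5.68 at day 210, with a change of -1.05 (SE 0.35, adjusted p = 0.11) that was -0.77 (SE 0.31, adjusted p = 0.227) with the same library left out. All day 30 libraries were above the later ones.

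The remaining H2A variants showed no call. H2A.J (MSTRG.7249) averaged 7.06 FPKM and had a change of -0.52 (SE 0.25, adjusted p = 0.243) at day 210 against day 30, and -0.32 (SE 0.23, adjusted p = 0.512) with day 210 replicate 2 left out. Macro-H2A.1, a large H2A variant with an added macro domain, is described as a core histone and was missed by the rule's wording. MSTRG.1894 gave 254, 242 and 266 at day 30, 247, 255 and 263 at day 90, then 216, 254 and 269 at day 210. All 9 libraries lay between 216 and 269. Its change was 0.00 (SE 0.11) at day 90 and -0.05 (SE 0.11, adjusted p = 0.839) at day 210, and the sign turned to 0.04 without day 210 replicate 1; it was -0.07 (SE 0.12, adjusted p = 0.818) without replicate 2. Macro-H2A.2 (MSTRG.17918) averaged 0.737 FPKM, below the level tested. H2A.V (MSTRG.21017) had a change of -0.24 (SE 0.17, adjusted p = 0.435), and -0.14 (SE 0.19, adjusted p = 0.746) without that library.

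H3.3 is the variant deposited in active chromatin outside S phase, and 3 loci carry its description. MSTRG.13519 averaged 84.8 FPKM, the highest of the variants, and MSTRG.14478 averaged 28.2. MSTRG.10031, H3.3-like, averaged 16.7 FPKM and gave 16.4, 16.5 and 12.2 at day 30, 14, 14.8 and 12.3 at day 90, then 10.2, 10.7 and 10.6 at day 210. All day 210 libraries were below all earlier ones. Its change was -0.51 (SE 0.14, adjusted p = 0.069) and -0.53 (SE 0.17, adjusted p = 0.144) without day 210 replicate 2, which at this locus was at 1.03 of the other day 210 libraries. MSTRG.14478 gave 156, 150 and 144 at day 30, 133, 152 and 142 at day 90, then 139, 106 and 90.6 at day 210, with a change of -0.42 (SE 0.15, adjusted p = 0.132). MSTRG.13519 gave 141, 142 and 111, then 136, 134 and 130, then 120, 106 and 86.6, with a change of -0.34 (SE 0.14, adjusted p = 0.193). For both of these, day 210 replicate 3 was the lowest library, and with replicate 2 left out their changes were -0.38 (SE 0.17, adjusted p = 0.287) and -0.35 (SE 0.17, adjusted p = 0.312). CENP-A, the H3 variant of centromeres, was the lowest variant at 6.47 FPKM. MSTRG.3988 gave 4.76, 4.68 and 2.77 at day 30, 3.64, 2.95 and 3.99 at day 90, then 3.74, 1.38 and 2.82 at day 210, where replicate 2 stood at 0.421 of the other libraries. Its change was -0.62 (SE 0.36, adjusted p = 0.33), and -0.31 (SE 0.29, adjusted p = 0.632) with replicate 2 left out.

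The special forms, several of which are known from the testis or oocyte, were at low levels in these spleens. Of these 9 loci, 8 averaged under 1 FPKM, from 0.00733 to 0.688. The one tested, an H2A-Bbd locus on the X chromosome (MSTRG.21773), averaged 1.54 FPKM and ranged from 0.44 to 0.829 scaled CPM, with a change of 0.08 (SE 0.33, adjusted p = 0.915) at day 210 that turned to -0.03 without day 30 replicate 1 and was 0.00 (SE 0.38, adjusted p = 0.998) without day 210 replicate 2. Testis-type H1t (MSTRG.9893), which lies inside the left group on chromosome 7, averaged 0.34 FPKM and was not tested. It gave 0.871, 0.644 and 0.442 at day 30, 0.127, 0.0766 and 0.0827 at day 90, then 0.398, 0.0789 and 0.145 at day 210. The day 30 libraries were the 3 highest. Among the replication-dependent loci, 2 were also under the level tested: a partial H3.1 locus on chromosome 2 at 0.012 FPKM and an H2A type 1-like locus (MSTRG.9899) at 0.495 FPKM.

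Several H2A and H2B genes stand head to head, a layout in which both are transcribed from a shared stretch of DNA. The distance between their ends in the table was 224 bases for 2 pairs on chromosome 4. For MSTRG.6096 and MSTRG.6097 the ratio of H2B to H2A FPKM ran from 1.02 to 2, and for MSTRG.6099 and MSTRG.6098 from 0.553 to 1.13. For MSTRG.6093 and MSTRG.6094, 325 bases apart, it ran from 0.834 to 1.46. On chromosome 2, MSTRG.2918 stood at 0.199 to 0.487 of MSTRG.2917, 515 bases away. The pair on chromosome 7 was lopsided: the H2B locus MSTRG.9900 averaged 156 FPKM and its H2A neighbour MSTRG.9899, 342 bases away, 0.495 FPKM. In these pairs the ratio in day 210 replicate 2 was 1.99, 0.937, 1.09 and 0.275 for the first 4, each within the range of the other libraries.

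HINFP, a transcription factor that acts at H4 promoters, was the non-histone that the rule's wording picked up. MSTRG.12871 gave 14.3, 13.4 and 10.5 at day 30, 10.5, 11.5 and 9.59 at day 90, then 9.44, 9.51 and 13.6 at day 210. The ages overlapped, and the change at day 210 was -0.23 (SE 0.18, adjusted p = 0.476), and -0.15 (SE 0.20, adjusted p = 0.757) with day 210 replicate 2 left out.

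Genes that supply and handle histones were read from 3 lists. The first holds factors of histone gene transcription and mRNA 3′ end formation, of which 11 of 14 were found. Neither edgeR nor DESeq2 called any in any comparison of ages, where edgeR called 6.08% of all tested loci at day 90 and 6.24% at day 210 against day 30 and 0.535% at day 210 against day 90. An unadjusted p under 0.05 was found for 0 at either later age against day 30 and for 3 at day 210 against day 90; the shares of all loci in these comparisons were 23.1%, 23.7% and 14.1%. The median change at day 210 against day 30 was -0.06, and 0.00 with day 210 replicate 2 left out. SLBP, which binds the stem-loop of histone mRNAs, gave 68.8, 64.1 and 60.8 at day 30, 52.7, 53.6 and 51 at day 90, then 53.9, 50.8 and 75.8 at day 210. Its change was -0.10 (SE 0.15, adjusted p = 0.728), and 0.01 (SE 0.15, adjusted p = 0.989) with that library left out. NPAT, the coactivator of histone gene clusters, had a change of 0.15 (SE 0.10, adjusted p = 0.376), and 0.13 (SE 0.11, adjusted p = 0.583) with it left out. Day 210 replicate 2 was the lowest library for 3 of the 11, against 15.4% of all tested loci, with a median ratio of 0.963.

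The second list holds chaperones and exchangers, of which 21 of 25 were found. None was called by edgeR, with an unadjusted p under 0.05 for 2 at day 90 and 1 at day 210 against day 30 and 3 at day 210 against day 90, and DESeq2 called 1, in the last comparison. The shares of all loci were the same as those given for the first list. The median change at day 210 against day 30 was -0.18, and -0.05 with day 210 replicate 2 left out. Day 210 replicate 2 was the lowest library for 14 of 21, against 15.4% of all tested loci, with a median ratio of 0.833. It was below 0.5 of the other day 210 libraries for 3, against 3.63% of all loci. These were CHAF1B, a subunit of the replication-coupled assembly factor, at 0.304, ASF1B, an H3-H4 chaperone of dividing cells, at 0.335, and HJURP, which loads CENP-A, at 0.19. ASF1B gave 10.7, 6.89 and 5.75 at day 30, 6.39, 6.13 and 6.7 at day 90, then 6.75, 2.29 and 6.9 at day 210.

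The third list holds genes of S phase and mitosis, of which 26 of 28 were found. At day 90 against day 30 edgeR called 0, against 6.08% of all tested loci. An unadjusted p under 0.05 was found for 2 there, 4 at day 210 against day 30 and 2 at day 210 against day 90. The shares of all loci were 23.1%, 23.7% and 14.1%. At day 210 edgeR called 1 against day 30 and 1 against day 90, where 6.24% and 0.535% of all tested loci were called. Both calls were MCM5, a subunit of the replicative helicase, which DESeq2 called in each comparison. MCM5 rose at day 210 against day 30 (0.53, SE 0.13, adjusted p = 0.0454) and against day 90 (0.97, SE 0.13, adjusted p = 0.0238). It gave 381, 474 and 360 at day 30, 277, 307 and 311 at day 90, then 618, 581 and 551 at day 210. The adjusted p was 0.107 and 0.0625 without day 210 replicate 2. Over the left-out libraries the change against day 30 ran from 0.45 to 0.65 with an adjusted p of 0.0451 to 0.143, and it passed only without day 30 replicate 2. Against day 90 it lost the call without any 1 of the day 90 libraries (0.099 to 0.11) or without day 210 replicate 1 (0.0573). The median change of the list at day 210 against day 30 was -0.35, and -0.02 with day 210 replicate 2 left out. Day 210 replicate 2 was the lowest library for 25 of 26, against 15.4% of all tested loci. It was below 0.5 of the other day 210 libraries for 19, against 3.63% of all loci, with a median ratio of 0.444. The exception to the 25 was MCM5, at 0.994 of the other day 210 libraries. The other MCM subunits found (MCM2, MCM3, MCM4, MCM6 and MCM7) stood at 0.306 to 0.563 there. Over the 9 libraries they gave 11.2 to 85.5 scaled CPM, below every MCM5 value, and none was called. The cause of this difference was not tested. MKI67, a marker of cycling cells, gave 302, 274 and 253 at day 30, 223, 228 and 229 at day 90, then 265, 78.8 and 217 at day 210. Its change at day 210 against day 30 was -0.56 (SE 0.34, adjusted p = 0.358), and -0.20 (SE 0.13, adjusted p = 0.46) with that library left out. PCNA, the sliding clamp of DNA replication, gave 70.2, 42.9 and 52.5 at day 210, with a change of -0.04 (SE 0.17, adjusted p = 0.924) that was 0.12 (SE 0.15, adjusted p = 0.74) with it left out.

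**Figure D4:**
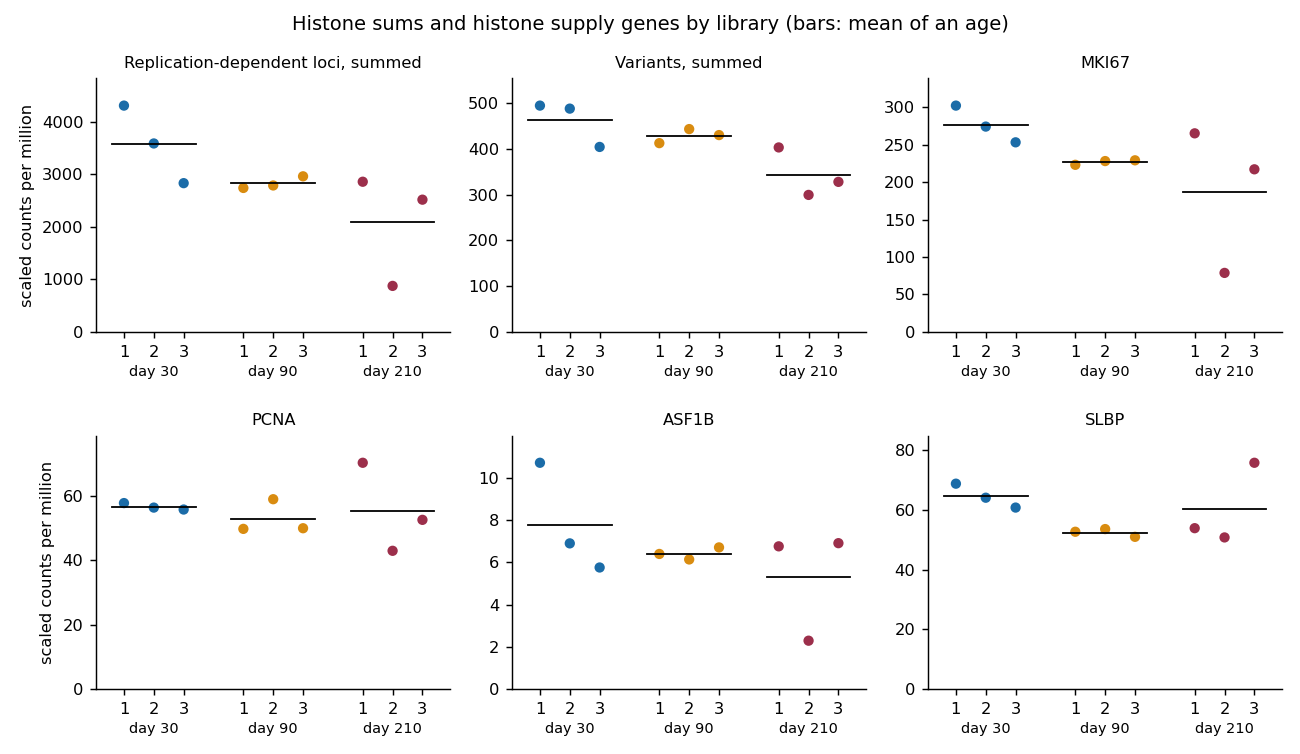
Summed scaled CPM of replication-dependent histone loci and of variants, and scaled CPM of MKI67, PCNA, ASF1B and SLBP, in each library, with black bars for the mean of an age. All 6 series have their lowest value in day 210 replicate 2: 876.1 and 299.4 for the sums, 78.8 for MKI67, 42.9 for PCNA, 2.29 for ASF1B and 50.8 for SLBP.

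**Figure D5:**
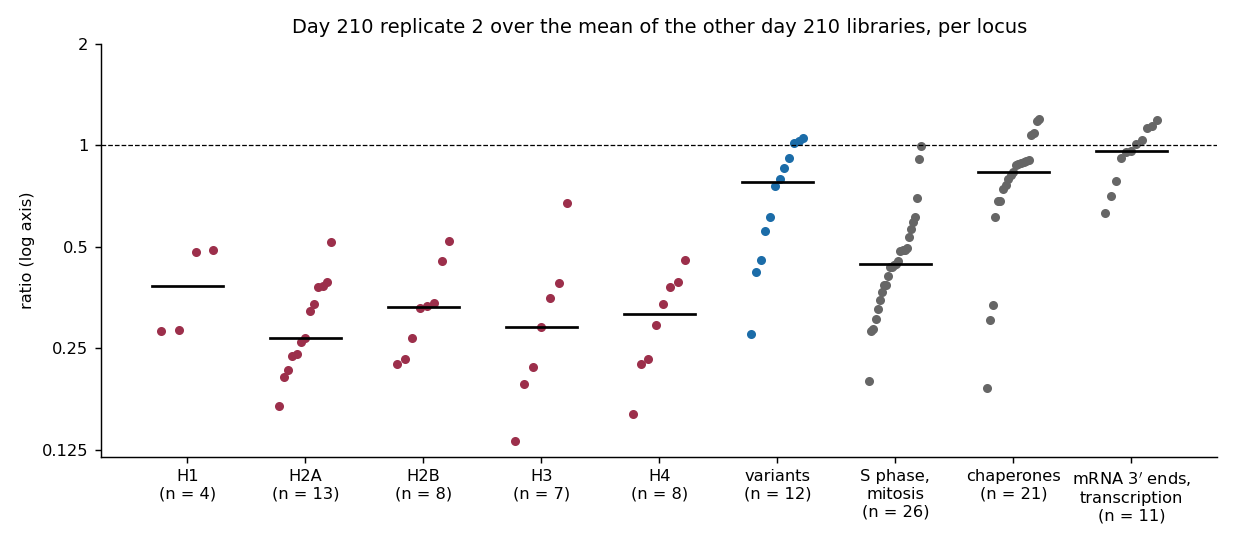
Ratio of day 210 replicate 2 to the mean of the other day 210 libraries for each tested locus (log axis), by histone class, for variants and for the 3 lists of supply genes, with black bars for medians; the H4 and variant columns include loci outside the rule's wording. The median was 0.29 for replication-dependent loci by the rule, 0.444 for S phase and mitosis, 0.833 for chaperones and 0.963 for histone mRNA factors.

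Markers of spleen cell types moved with age as well, and in bulk tissue fewer cells of a type cannot be told apart from less RNA per cell. Over all tested loci 2.06% rose and 4.02% fell at day 90 against day 30, and 2.55% rose and 3.7% fell at day 210. Of 11 erythroid markers found, 8 fell at day 90 and all 11 at day 210 against day 30, with a summed level of 2540 to 5030 FPKM at day 30, 952 to 1930 at day 90 and 310 to 1260 at day 210. The lowest of these, 310, was day 210 replicate 2, but most of the sum is HBA1, an alpha-globin, which alone gave 302 FPKM there and 2390 to 4910 at day 30. That library was the lowest for 4 of the 11 markers, against 15.4% of all tested loci. In scaled CPM it stood below 0.5 of the other day 210 libraries for 5 of the 11, against 3.63% of all loci. These were HBA1 (0.286), ALAS2 (0.333), AHSP (0.282), CA1 (0.153) and KLF1 (0), of which CA1 and KLF1 had few counts. The ratio was 1.21 for GATA1 and 1.88 for RHAG, which had 33, 35 and 10 counts at day 210. The median of the 11 was 0.703. KLF1 and RHAG were at 0 in at least 1 library. For B cells, 3 of 5 markers rose at day 90, and their sum was 67.8 to 86.7 FPKM at day 30, 104 to 121 at day 90 and 63.7 to 70.5 at day 210. All 4 plasma cell markers found rose at both later ages, from 402 to 470 FPKM in sum at day 30 to 965 to 1230 at day 210. T cell markers summed to 30.8 to 33.1 FPKM at day 30 and 37 to 51.3 at day 210, where 1 of 4 (CD3D) rose. Day 210 replicate 2 was the lowest of all 9 libraries for CD8A, with 13.5, 3.45 and 11.9 FPKM in the day 210 libraries, and for CD4, with 7.65, 4.54 and 8.71. Its ratio to the other day 210 libraries was 0.972 for CD3D and 0.966 for CD3G. Macrophage markers summed to 487 to 608 FPKM at day 30 and 445 to 728 at day 210, where 1 of 6 (CD163) rose and day 210 replicate 2 was the highest at 728. Neutrophil markers were low, from 0.484 to 11.6 FPKM in sum, where 1 of 3 (S100A12) fell at day 90, with MPO and S100A12 at 0 in at least 1 library. The part of these cell types in the histone values was not tested.

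The deposited table of circular RNAs held 18908 entries, and 1 of them came from a histone gene. It joins 2 exons of macro-H2A.1 and had 8 junction reads in all: 3 and 1 in day 30 replicates 2 and 3, and 3 and 1 in day 90 replicates 1 and 3. No junction read was counted at day 210, among 10962 to 15469 junction reads per library. One other entry, with 2 reads, lies in the merged locus MSTRG.9894 but comes from its non-histone gene.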

How the data were processed

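Spleen RNA of Ningxiang pigs (9 libraries) was sequenced as read pairs, per the labels' protocols, which also mention adipose tissue although the tissue label is spleen. The submitters' processing notes name Bowtie 0.12.2, HISAT2 2.0 and StringTie 1.3.0, with no role, and the build mm8, a mouse build, while the deposited coordinates follow pig chromosomes. The authors deposited counts and FPKM per locus side by side. For the tested histone loci FPKM is close to the counts times a factor per library, while loci of a few counts depart from this; those factors differ by up to 1.22 times, so sums of FPKM and of scaled CPM differ between ages. A table of circular RNAs gives deposited counts of junction reads; its scaled signal (SRPBM), also deposited by the authors, was not used for a result.

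Loci averaging 1 FPKM or more were fitted in edgeR 4.0.16 (R 4.3.3; TMM, 1 mean per age, all 9 libraries, no block; biological coefficient of variation 27.3%), two-sided, adjusted by Benjamini-Hochberg over 19264 loci. DESeq2 1.42.0 and limma 3.58.1 on log2(FPKM + 1) or log2(FPKM + 0.1), other filters and scalings, only the ages compared, and leaving out each library were alternatives; the fit was tested on simulated data. Named are called loci, the 3 highest loci per class, and all variants. Of the supply lists, called genes and SLBP, NPAT, MKI67 and PCNA are named, and marker lists are given by counts with examples. CHAF1B, ASF1B, HJURP, MSTRG.11371 and the MCM subunits other than MCM5 were added after their values were seen. Members and lists were chosen with earlier results of these data known. No library was a copy of another of the same age, and libraries of different ages were not checked for this. One marker list is not reported here, and sequences were not used.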

Additional observations from a re-analysis of the deposited data

How the results depend on the processing

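The count of histone loci called at day 210 against day 30 rested on adjusted p-values close to the threshold. It was 3 as reported, 9 with DESeq2, 1 without a filter on low values or with filterByExpr, and 0 with only the ages compared or with the replicate block. The share of all loci called by DESeq2 or limma is not given, so their counts cannot be read as more or fewer than the background. Leaving out 1 library at a time gave 0 to 5. The count was 0 when replicate 1 or 2 of day 30 or replicate 3 of day 90 was left out. It was 5 when replicate 3 of day 30 was left out, and 1 for replicates 1 and 2 of day 90 and replicates 2 and 3 of day 210. At day 90 against day 30 the count was 0, and 1 with DESeq2 or with limma at either pseudocount; leaving out libraries gave 0 to 1. At day 210 against day 90 it was 0, and 2 with DESeq2. Over all ages it was 1, 8 with DESeq2, 3 with limma at either pseudocount, and 0 with upper-quartile factors, without a filter, with filterByExpr or with the replicate block; leaving out libraries gave 0 to 3. Counting the histone loci spelled otherwise as members left edgeR's counts within 1.5 times, whereas DESeq2's went from 1 to 3 at day 90 and from 9 to 11 at day 210 against day 30. Of the changes at day 210 against day 30 of the named loci and of HINFP, MCM5, SLBP, NPAT, MKI67 and PCNA, these turned sign over the left-out libraries: macro-H2A.1 (-0.12 to 0.04), the H2A-Bbd locus (-0.03 to 0.22), SLBP (-0.31 to 0.01) and PCNA (-0.25 to 0.12).

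Among the supply genes the count at day 90 against day 30 was 0, and 1 with DESeq2, with limma or with only the ages compared; leaving out libraries gave 0 to 1. At day 210 against day 30 it was 1, and 0 with limma, without a filter, with filterByExpr, with only the ages compared or with the replicate block; leaving out libraries gave 0 to 1. At day 210 against day 90 it was 1, 2 with DESeq2 and 0 with the replicate block, and 0 to 1 without a library. These alternatives for the supply genes were chosen after seeing the data. Day 90 over day 30 moved from 0.677 in summed FPKM to 0.792 in scaled CPM for replication-dependent loci, and from 0.795 to 0.927 for variants. Libraries of the same replicate number correlated at -0.071 to 0.0842 in their deviations from the age means. Those of different numbers correlated at -0.135 to 0.147. With 3 libraries per age, these values cannot tell whether the numbers pair samples, and the labels do not say. For the other differences the cause was not tested.

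The main limits are the spread within day 210, where 1 library decides much of the change, the spread within day 30, and the 3 libraries per age. Day 30 replicate 1 was the highest library at 28 of the 33 tested replication-dependent loci. Without it no histone locus was called at day 210 against day 30. Near-identical copies, overlapping loci and unstated strand use limit values of single loci.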
